A study of Mus musculus with 24 samples.

Results

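Macrophage and myeloid cell genes are here a named list of genes, most of them known from macrophages, monocytes and other myeloid leukocytes. They include surface markers, complement chains, Fc receptors and their adaptors, phagocyte enzymes, and the transcription factor that drives the program. Some, such as *Axl*, *Cyba* and *Itgb2*, are also read in the cultured cancer cells of this study. The genes were taken from the deposited table by symbol, and all 37 named genes were found among its 12091. The study isolated total RNA from mouse breast tumors and breast cancer cells for mRNA sequencing. It asked what follows when pleiotrophin (PTN), a secreted heparin-binding cytokine, is blocked or depleted. It holds 24 samples in 8 groups of 3. 4T1 tumors grew in female BALB/c mice after 4T1 cells, a mammary cancer line of that strain, were placed in the mammary gland at 8 weeks of age; treatment began once tumors could be felt. *MMTV-PyMT* tumors arose in female FVB/N mice in which the mammary tumor virus promoter drives the polyoma middle T antigen in mammary epithelium, and these mice were treated from 8 to 12 weeks of age. In both models mice received C44, a control IgG, or 3B10, a monoclonal antibody against PTN, at 15 mg/kg given 2 times a week. From the treated mice, 3 tumors per treatment were sequenced in each model. E0771 and E0771-LG are cultured breast cancer lines of C57BL/6 origin, the second derived from a lung metastasis of the first. Cells of each line carried the pLKO vector with a control sequence against EGFP (shCtrl) or a hairpin against *Ptn* (shPTN), with 3 cultures of each and no leukocytes added, so that they serve here as background.

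The scale differs within the table, so levels of 4T1 tumors are set against other samples only to check the scale. For *MMTV-PyMT* tumors and cells the deposited log2 values gave back whole read counts after an offset of 0.5 reads, so they are log2 CPM (reads scaled to M reads in the library, where M is mega); these 18 libraries held 15.63 to 21.12 M reads (median 18.24). In *MMTV-PyMT* the C44 libraries held 18.76 to 19.25 M reads and the 3B10 libraries 16.26 to 18.44 M reads. The 4T1 values gave back whole reads, to within 0.01 of a whole number, in only 2.5 to 2.8% of genes, against 100% elsewhere. Relative to E0771-LG shCtrl cells the 4T1 values were lower in longer genes (slopes of -0.771 and -0.836 log2 units per doubling of exon length in the C44 and 3B10 tumors, against 0.006 and -0.006 in *MMTV-PyMT*, 0.055 and 0.03 in E0771 shCtrl and shPTN cells, and -0.231 in E0771-LG shPTN cells), as values divided by length would be. The 4T1 depth is therefore unknown. The slope was steeper in the 3B10 than in the C44 tumors of 4T1, and the part of gene length in their differences was not tested. Read counts are not independent molecules, so intervals and limits from them cover counting error only.

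Macrophages enter tumors as blood monocytes or derive from cells resident in the tissue, and they take up dying cells, debris and antibody-coated targets. Activating Fc receptors signal through the adaptor FcRγ, and TREM2 through DAP12, each of which carries an immunoreceptor tyrosine-based activation motif (ITAM), while SIRPα and the LILRB family hold phagocytosis back. In breast tumors such cells can supply growth factors and restrain lymphocytes, and PU.1, the product of *Spi1*, is the transcription factor that sets up their gene program.

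All 37 genes had a lower mean in 3B10 than in C44 tumors of the 4T1 model. The median log2 difference of the 37 was -0.62, against 0.01 over the 11467 genes tested, of which 48.4% were lower. In limma 25 of the 37 were lower at an unadjusted p under 0.05 (3.1% of all genes were) and 0 were higher (3.17% of all genes). In 20 of the 37, all 3 of the 3B10 tumors lay below all 3 of the C44 tumors (4.42% of all genes did so, and 6.87% lay above, with 0 of the 37 among them). No gene passed an adjusted p under 0.05 in limma (0% of all genes), and the smallest adjusted p among the 37 was 0.334; an exact permutation of 3 against 3 tumors cannot go below 0.1. In bulk tumor RNA, fewer cells of a type and less RNA per cell cannot be told apart. The 3B10 tumors were not alike: replicates 1 and 3 were below every C44 tumor in 34 and 35 of the genes, and replicate 2, the highest 3B10 tumor in 27 of the 37, in 22. The count of 25 was 16 without C44 replicate 1 and 7 when all 24 samples shared a single variance fit.

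In *MMTV-PyMT* tumors the same genes went both ways. Of the 34 genes above the minimum level (1 CPM above the value of 0 reads in at least 3 tumors), 20 (58.8%) were lower and 14 higher with 3B10, with a median log2 difference of -0.04 against 0.05 over all 11361 genes tested, of which 39% were lower. In limma 1 gene, *Siglec1*, was lower at an unadjusted p under 0.05 (1.18% of all genes were), 1, *Mertk*, was higher (1.52% of all genes), and 0 passed an adjusted p under 0.05 (0% of all genes). Groups did not overlap for *Siglec1* and *Fcgr1*, both lower (2.27% of all genes), or for *Mertk* and *Cd83*, both higher (6.06% of all genes). The split of 20 lower and 14 higher moved with single tumors: it was 30 and 4 without 3B10 replicate 1, 12 and 22 without 3B10 replicate 3, 10 and 24 without C44 replicate 2, and 26 and 8 without C44 replicate 3. The count of genes lower at an unadjusted p under 0.05 was 2 without 3B10 replicate 1 and 0 when all 24 samples shared a variance fit. In each group a single tumor stood at the edge for most genes. C44 replicate 3 was the lowest C44 tumor in 30 of 35 genes with reads. 3B10 replicate 1 was the highest 3B10 tumor in 29 of 35. That 3B10 tumor lay above every C44 tumor in 19 of these 35 genes, while 3B10 replicates 2 and 3 lay below the C44 mean in 30 and 29 of them.

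**Figure D1:**
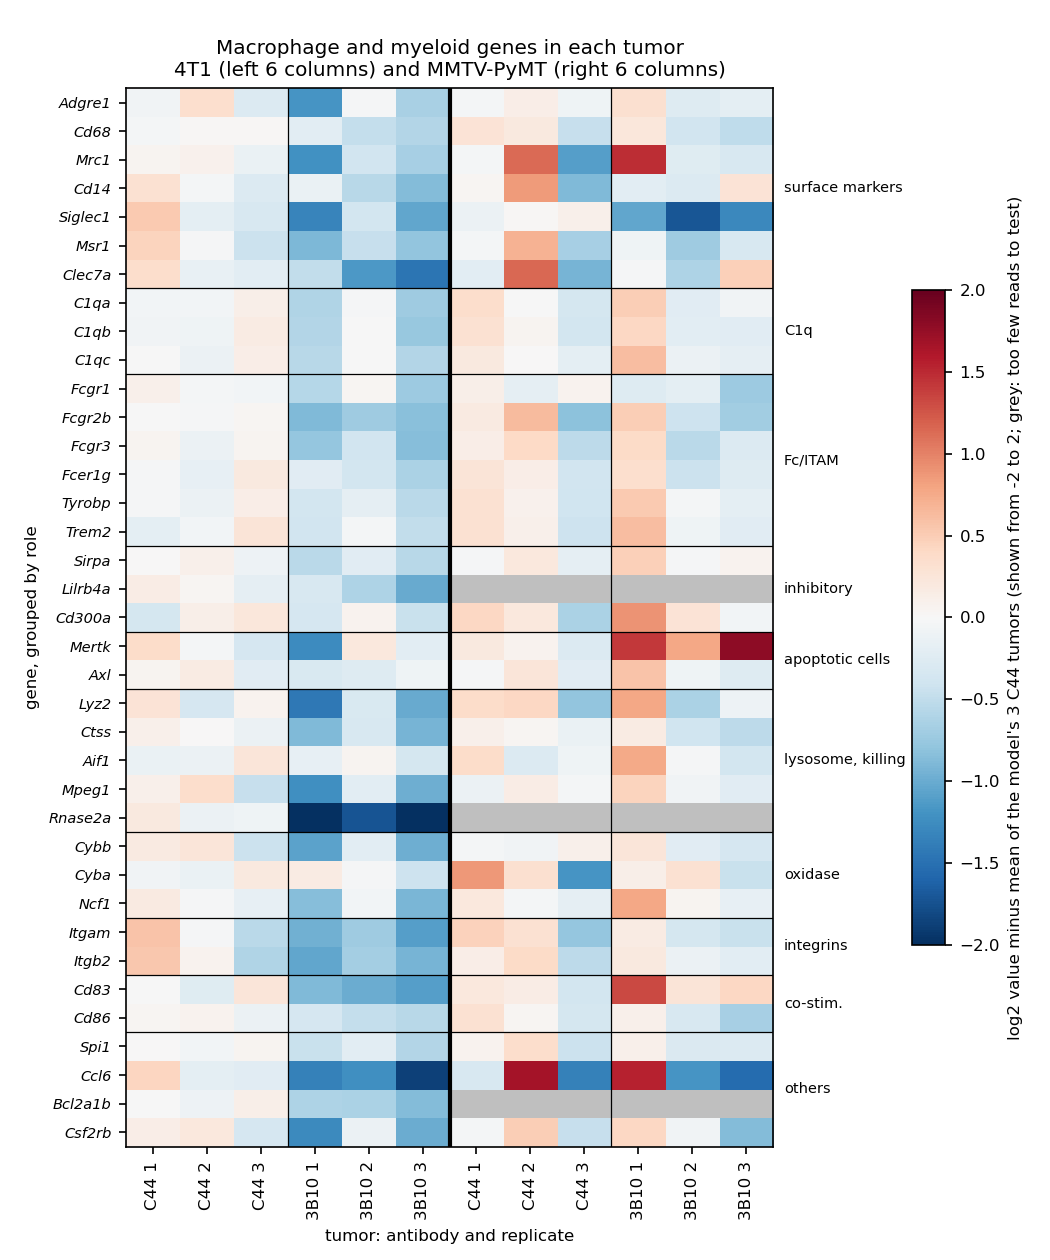
Log2 value of each gene in each tumor minus the mean of the 3 C44 tumors of the same model, as color from -2 to 2; rows are genes grouped by role and columns are tumors. The 3B10 columns of 4T1 are mostly blue, palest in replicate 2, while in *MMTV-PyMT* 3B10 replicate 1 is mostly red and replicates 2 and 3 mostly blue; grey marks the 3 genes with too few reads to test.

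PU.1 binds a known purine-rich sequence, and the promoters of the 37 genes were searched for its letters. RefSeq promoters of 300 bases (250 before to 50 after the start site, build GRCm38.p6) matched 24 of the 37 genes. GAGGAA, the core of the PU.1 site, occurred on either strand in 16 of these 24 (66.7%) and in 2902 of the 9390 promoters of all genes in the table (30.9%). The longer GAGGAAGT, which contains GAGGAA, occurred in 3 of the 24 (12.5%) and in 350 of the 9390 (3.73%). Those 3 promoters are shown from 250 bases before to 30 after the start site, 5′ to 3′ on the strand of the gene, with the longer motif in capitals (as ACTTCCTC where it lies on the opposite strand). *C1qc* (chr4:136892885-136893164, minus strand) has it 195 bases before the start, *Ctss* (chr3:95526536-95526815, plus strand) 2 bases before it, and *Bcl2a1b* (chr9:89199023-89199302, plus strand) 148 bases before it. A match describes letters and is not a binding site.
C1qc: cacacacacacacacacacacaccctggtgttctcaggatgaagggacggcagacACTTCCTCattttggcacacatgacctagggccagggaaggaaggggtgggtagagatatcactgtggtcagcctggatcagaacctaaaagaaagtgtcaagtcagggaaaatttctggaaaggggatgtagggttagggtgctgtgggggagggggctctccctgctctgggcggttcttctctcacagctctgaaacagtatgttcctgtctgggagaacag
Ctss: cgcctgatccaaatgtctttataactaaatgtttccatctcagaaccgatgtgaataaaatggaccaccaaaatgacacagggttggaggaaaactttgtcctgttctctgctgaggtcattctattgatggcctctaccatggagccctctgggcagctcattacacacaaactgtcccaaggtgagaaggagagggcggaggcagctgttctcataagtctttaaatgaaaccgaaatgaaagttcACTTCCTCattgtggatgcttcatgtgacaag
Bcl2a1b: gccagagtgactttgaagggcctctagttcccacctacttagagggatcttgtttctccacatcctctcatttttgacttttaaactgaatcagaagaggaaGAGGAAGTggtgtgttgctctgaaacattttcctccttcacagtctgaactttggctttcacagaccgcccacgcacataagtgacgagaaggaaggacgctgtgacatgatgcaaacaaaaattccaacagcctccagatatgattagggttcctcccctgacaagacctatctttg

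Among the 7 surface markers and scavenger receptors, all were lower in 4T1 with 3B10. Of the 7, 5 were lower at an unadjusted p under 0.05 in limma (3.1% of all genes were). Counts by role, here and below, are parts of the 25 of 37 given above and not further results. *Adgre1*, which encodes the mouse macrophage antigen F4/80, had log2 values of 5.89, 6.30 and 5.68 in the C44 tumors and 4.77, 5.93 and 5.31 in the 3B10 tumors of 4T1. *Cd68*, a lysosomal glycoprotein of macrophages, had 7.84, 7.89 and 7.89 in the C44 tumors and 7.66, 7.40 and 7.28 in the 3B10 tumors. *Mrc1*, the mannose receptor CD206, had 6.68, 6.71 and 6.49 in the C44 tumors and 5.41, 6.25 and 5.96 in the 3B10 tumors. For *Cd68* and *Mrc1* every 3B10 tumor was below every C44 tumor, whereas *Adgre1* in 3B10 replicate 2 was within the C44 range. From limma, with standard error (SE) and 95% confidence interval (CI), the log2 differences were -0.62 (SE 0.30, 95% CI -1.32 to 0.07) for *Adgre1*, -0.42 (SE 0.13, 95% CI -0.72 to -0.13) for *Cd68* and -0.75 (SE 0.21, 95% CI -1.25 to -0.26) for *Mrc1*. *Clec7a*, the receptor dectin-1 for fungal β-glucans, had 7.58, 7.08 and 7.01 in the C44 tumors and 6.73, 6.08 and 5.77 in the 3B10 tumors, a difference of -1.03 (SE 0.26, 95% CI -1.64 to -0.42). *Cd14*, a co-receptor for lipopolysaccharide, had 7.24, 6.89 and 6.66 in the C44 tumors and 6.80, 6.37 and 6.06 in the 3B10 tumors (-0.52 on the log2 scale, 95% CI -1.04 to 0.00). *Clec7a* did not overlap between the groups, and *Cd14* did, through 3B10 replicate 1. *Siglec1*, the sialic acid receptor CD169, had 4.61, 3.89 and 3.76 in the C44 tumors and 2.76, 3.72 and 3.05 in the 3B10 tumors, a difference of -0.91 (SE 0.31, 95% CI -1.64 to -0.18), with C44 replicate 1 far above the other C44 tumors and no overlap. *Msr1*, the class A scavenger receptor, had a log2 difference of -0.72 (SE 0.23, 95% CI -1.25 to -0.19), also without overlap.

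Of the surface markers, only *Siglec1* was lower in *MMTV-PyMT* at an unadjusted p under 0.05 in limma (1.18% of all genes were). Its log2 CPM were 2.12, 2.25 and 2.33 in the C44 tumors and 1.20, 0.52 and 0.95 in the 3B10 tumors, or 83 to 94 reads against 26 to 37. All 3 of the 3B10 tumors were below all 3 of the C44 tumors, with a log2 difference of -1.34 (SE 0.32, 95% CI -2.09 to -0.59, adjusted p = 1 in limma). *Adgre1* had 3.92, 4.10 and 3.87 in the C44 tumors and 4.28, 3.71 and 3.77 in the 3B10 tumors of *MMTV-PyMT*, and *Cd68* had 4.66, 4.58 and 3.93 in the C44 tumors and 4.61, 4.00 and 3.88 in the 3B10 tumors. *Mrc1* ranged widely, with 3.04, 4.21 and 1.97 in the C44 tumors and 4.55, 2.83 and 2.75 in the 3B10 tumors. *Clec7a* had 0.62, 1.99 and -0.10 in the C44 tumors and 0.81, 0.22 and 1.32 in the 3B10 tumors, and *Cd14* had 7.90, 8.71 and 6.98 in the C44 tumors and 7.66, 7.59 and 8.14 in the 3B10 tumors. In these 5 genes the groups overlapped; C44 replicate 3 was the lowest C44 tumor in each, and *Mrc1* was high in C44 replicate 2 and 3B10 replicate 1.

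The 3 chains of C1q, the recognition protein of the classical complement pathway, are encoded side by side within 18.7 kb (chr4:136880129-136898803, GRCm38) and were among the most abundant of the 37. In 4T1, *C1qa* had 10.82, 10.82 and 10.99 in the C44 tumors and 10.27, 10.86 and 10.16 in the 3B10 tumors, *C1qb* had 10.30, 10.27 and 10.52 in the C44 tumors and 9.77, 10.35 and 9.60 in the 3B10 tumors, and *C1qc* had 9.40, 9.29 and 9.54 in the C44 tumors and 8.85, 9.40 and 8.82 in the 3B10 tumors. All 3 chains were low in 3B10 replicates 1 and 3, while 3B10 replicate 2 was within the C44 range, so that the groups overlapped. The log2 differences were -0.45, -0.46 and -0.39, with 95% CI of -0.89 to 0.00, -0.93 to 0.01 and -0.80 to 0.03. In *MMTV-PyMT*, *C1qa* had 7.26, 6.90 and 6.55 in the C44 tumors and 7.39, 6.67 and 6.84 in the 3B10 tumors, *C1qb* had 6.45, 6.20 and 5.78 in the C44 tumors and 6.56, 5.94 and 5.92 in the 3B10 tumors, and *C1qc* had 6.19, 6.01 and 5.80 in the C44 tumors and 6.61, 5.88 and 5.82 in the 3B10 tumors. There the highest tumor for each chain was 3B10 replicate 1, the lowest C44 tumor was replicate 3, and the groups overlapped.

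Of the 6 Fc receptor and ITAM adaptor genes, 4 were lower in 4T1 at an unadjusted p under 0.05 in limma (3.1% of all genes were). The lowest estimate of the 6 was that of the inhibitory receptor. *Fcgr2b* and *Fcgr3* encode the inhibitory receptor FcγRIIB and the activating receptor FcγRIII, and with *Fcer1g* they lie within 275.7 kb (chr1:170958617-171234365, GRCm38). *Fcgr2b* had 7.33, 7.32 and 7.38 in the C44 tumors and 6.46, 6.64 and 6.51 in the 3B10 tumors, a log2 difference of -0.81 (SE 0.11, 95% CI -1.06 to -0.56). *Fcgr3* had 8.64, 8.47 and 8.63 in the C44 tumors and 7.81, 8.20 and 7.73 in the 3B10 tumors, a difference of -0.67 (SE 0.15, 95% CI -1.01 to -0.32). Neither overlapped between the groups, and the 3 C44 tumors of *Fcgr2b* lay close together. *Fcgr1*, the high-affinity IgG receptor, had 6.67, 6.53 and 6.52 in the C44 tumors and 6.01, 6.61 and 5.85 in the 3B10 tumors, with 3B10 replicate 2 inside the C44 range (-0.42, 95% CI -0.88 to 0.05). *Fcer1g*, the adaptor FcRγ, had 8.68, 8.55 and 8.90 in the C44 tumors and 8.49, 8.35 and 8.08 in the 3B10 tumors. *Tyrobp*, the adaptor DAP12, had 9.75, 9.65 and 9.90 in the C44 tumors and 9.40, 9.59 and 9.22 in the 3B10 tumors. *Trem2*, a lipid-sensing receptor that signals through DAP12, had 4.68, 4.82 and 5.13 in the C44 tumors and 4.50, 4.84 and 4.38 in the 3B10 tumors. The adaptors did not overlap between groups (-0.40 and -0.36, 95% CI -0.75 to -0.06 and -0.68 to -0.05), whereas *Trem2* did (-0.30, 95% CI -0.73 to 0.12).

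In *MMTV-PyMT* tumors *Fcgr1* had log2 CPM of 2.93, 2.63 and 2.88 in the C44 tumors and 2.55, 2.62 and 2.08 in the 3B10 tumors. Every 3B10 tumor was below every C44 tumor, by little in replicates 1 and 2, with a log2 difference of -0.40 (SE 0.27, 95% CI -1.03 to 0.23). *Fcgr2b* had 4.12, 4.56 and 3.12 in the C44 tumors and 4.42, 3.52 and 3.24 in the 3B10 tumors, and *Fcgr3* had 4.00, 4.27 and 3.34 in the C44 tumors and 4.25, 3.33 and 3.59 in the 3B10 tumors. *Fcer1g* had 3.75, 3.62 and 3.11 in the C44 tumors and 3.83, 3.06 and 3.24 in the 3B10 tumors, *Tyrobp* had 4.13, 3.91 and 3.42 in the C44 tumors and 4.34, 3.78 and 3.62 in the 3B10 tumors, and *Trem2* had 4.31, 4.11 and 3.59 in the C44 tumors and 4.62, 3.91 and 3.77 in the 3B10 tumors. For these 5 the groups overlapped, with C44 replicates 1 and 2 and 3B10 replicate 1 as the 3 high tumors.

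The inhibitory receptors gave 2 of 3 lower in 4T1 at an unadjusted p under 0.05 in limma (3.1% of all genes were). *Sirpa*, whose protein SIRPα binds CD47 and restrains engulfment, had 7.17, 7.26 and 7.06 in the C44 tumors and 6.63, 6.94 and 6.61 in the 3B10 tumors, a log2 difference of -0.44 (SE 0.13, 95% CI -0.75 to -0.13) without overlap. In *MMTV-PyMT* *Sirpa* had 6.68, 6.90 and 6.51 in the C44 tumors and 7.18, 6.68 and 6.76 in the 3B10 tumors, and the groups overlapped. *Lilrb4a* differed by -0.64 in 4T1 (95% CI -1.09 to -0.20) and had 0 reads in all 6 *MMTV-PyMT* tumors. *Cd300a* differed by -0.24 in 4T1 (95% CI -0.76 to 0.29).

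*Mertk* and *Axl* encode receptor tyrosine kinases that bind apoptotic cells through the bridging ligands GAS6 and, for MERTK, protein S. In 4T1 *Mertk* had 3.99, 3.59 and 3.29 in the C44 tumors and 2.37, 3.84 and 3.41 in the 3B10 tumors, and *Axl* had 8.88, 8.99 and 8.60 in the C44 tumors and 8.52, 8.57 and 8.74 in the 3B10 tumors. Both overlapped between the groups, *Mertk* with 3B10 replicate 1 far below the rest (-0.42 and -0.21, 95% CI -1.30 to 0.46 and -0.53 to 0.11). In *MMTV-PyMT* *Mertk* was the gene with the smallest p of the 34, at 2.74, 2.62 and 2.27 in the C44 tumors and 3.95, 3.32 and 4.34 in the 3B10 tumors, or 90 to 128 reads against 183 to 329. All 3 of the 3B10 tumors were above all 3 of the C44 tumors, with a log2 difference of 1.32 (SE 0.31, 95% CI 0.60 to 2.05, adjusted p = 1 in limma). *Axl* had 5.48, 5.75 and 5.28 in the C44 tumors and 6.07, 5.41 and 5.24 in the 3B10 tumors, and its groups overlapped.

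Among lysosomal, killing and calcium-binding proteins, 4 of 5 were lower in 4T1 at an unadjusted p under 0.05 in limma (3.1% of all genes were). *Lyz2*, lysozyme M, was the most abundant of the 37 per length in both tumor models, and in 4T1 it had 13.02, 12.41 and 12.82 in the C44 tumors and 11.32, 12.45 and 11.74 in the 3B10 tumors. *Ctss*, the protease cathepsin S that trims the invariant chain of MHC class II, had 11.26, 11.17 and 11.05 in the C44 tumors and 10.27, 10.84 and 10.23 in the 3B10 tumors. *Mpeg1*, the pore-forming protein perforin-2, had 8.48, 8.73 and 7.91 in the C44 tumors and 7.15, 8.16 and 7.39 in the 3B10 tumors. *Ctss* did not overlap between groups, and *Lyz2* and *Mpeg1* overlapped through 3B10 replicate 2. The log2 differences were -0.92 (SE 0.29, 95% CI -1.60 to -0.23), -0.71 (SE 0.18, 95% CI -1.14 to -0.29) and -0.81 (SE 0.30, 95% CI -1.50 to -0.11) in that order. *Rnase2a*, an eosinophil-associated ribonuclease, had 4.24, 3.94 and 3.97 in the C44 tumors and 1.58, 2.32 and 1.09 in the 3B10 tumors. Its difference, -2.38 (SE 0.31, 95% CI -3.10 to -1.66), was the largest of the 37 in 4T1, and all 3 of the 3B10 tumors were below the C44 tumors. *Rnase2a* had 0 reads in all 6 *MMTV-PyMT* tumors, a count that allows for up to 3 reads. In *MMTV-PyMT* *Lyz2* had 8.01, 8.06 and 6.86 in the C44 tumors and 8.41, 7.01 and 7.54 in the 3B10 tumors, *Ctss* had 7.20, 7.14 and 6.96 in the C44 tumors and 7.27, 6.70 and 6.57 in the 3B10 tumors, and *Mpeg1* had 7.11, 7.37 and 7.19 in the C44 tumors and 7.67, 7.16 and 6.99 in the 3B10 tumors. Those groups overlapped, *Ctss* with the 2 lowest tumors in 3B10 (log2 difference -0.25 (SE 0.20, 95% CI -0.71 to 0.20)). *Aif1*, the calcium-binding protein IBA1, differed in 4T1 by -0.15 (95% CI -0.52 to 0.21).

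NADPH oxidase makes superoxide in the phagosome. Of its 3 genes here, 2 were lower in 4T1 at an unadjusted p under 0.05 in limma (3.1% of all genes were). *Cybb*, its catalytic subunit gp91-phox, had 6.82, 6.87 and 6.21 in the C44 tumors and 5.57, 6.43 and 5.66 in the 3B10 tumors of 4T1 and 4.70, 4.67 and 4.83 in the C44 tumors and 4.98, 4.50 and 4.39 in the 3B10 tumors of *MMTV-PyMT*. Groups overlapped in both models, in 4T1 through 3B10 replicate 2 and C44 replicate 3 (-0.75 (SE 0.27, 95% CI -1.38 to -0.12)). *Ncf1*, a cytosolic subunit, differed in 4T1 by -0.60 (95% CI -1.15 to -0.05), and *Cyba*, the membrane partner of *Cybb* that other cells express too, by -0.10 (95% CI -0.50 to 0.31). *Cyba* was the 1 gene of the 37 whose sign turned when a 4T1 tumor was left out, to 0.06 without 3B10 replicate 3 and to 0.00 without C44 replicate 3.

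*Itgam* and *Itgb2* encode the chains CD11b and CD18 of complement receptor CR3, and both were lower in 4T1 without overlap (4.42% of all genes were). *Itgam* had 6.88, 6.28 and 5.76 in the C44 tumors and 5.34, 5.59 and 5.21 in the 3B10 tumors, a log2 difference of -0.92 (SE 0.27, 95% CI -1.55 to -0.30). *Itgb2* had 8.20, 7.72 and 7.05 in the C44 tumors and 6.62, 6.97 and 6.72 in the 3B10 tumors, a difference of -0.89 (SE 0.27, 95% CI -1.52 to -0.25). In both, C44 replicate 1 was the highest tumor and C44 replicate 3 lay close above the 3B10 tumors. In *MMTV-PyMT* *Itgam* had 2.66, 2.51 and 1.43 in the C44 tumors and 2.37, 1.85 and 1.75 in the 3B10 tumors and *Itgb2* had 4.00, 4.24 and 3.34 in the C44 tumors and 4.06, 3.74 and 3.65 in the 3B10 tumors, with the lowest tumor in C44 and overlap between the groups.

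*Cd83* and *Cd86*, co-stimulatory molecules of activated antigen-presenting cells, were lower in 4T1 at an unadjusted p under 0.05 in limma (3.1% of all genes were). Neither overlapped between the groups (4.42% of all genes were lower without overlap). *Cd83* had 5.19, 4.96 and 5.44 in the C44 tumors and 4.32, 4.20 and 4.10 in the 3B10 tumors of 4T1, a log2 difference of -0.99 (SE 0.16, 95% CI -1.37 to -0.62). In *MMTV-PyMT* it had 2.09, 2.03 and 1.51 in the C44 tumors and 3.20, 2.13 and 2.29 in the 3B10 tumors, from 53 to 81 reads against 79 to 149. There all 3 of the 3B10 tumors were above all 3 of the C44 tumors, replicate 2 by little, with a log2 difference of 0.66 (SE 0.37, 95% CI -0.19 to 1.52). *Cd86* differed in 4T1 by -0.46 (SE 0.14, 95% CI -0.78 to -0.13).

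All 4 remaining genes were lower in 4T1 at an unadjusted p under 0.05 in limma (3.1% of all genes were). *Spi1*, which encodes PU.1, had 5.68, 5.63 and 5.73 in the C44 tumors and 5.23, 5.47 and 5.10 in the 3B10 tumors without overlap, a log2 difference of -0.41 (SE 0.14, 95% CI -0.73 to -0.10). *Csf2rb*, the shared β chain of the receptors for GM-CSF, IL-3 and IL-5, had 6.36, 6.43 and 5.89 in the C44 tumors and 4.96, 6.11 and 5.24 in the 3B10 tumors, with 3B10 replicate 2 inside the C44 range (-0.79, 95% CI -1.49 to -0.09). *Ccl6*, a CC chemokine of myeloid cells, had 9.62, 9.0 and 8.97 in the C44 tumors and 7.85, 7.97 and 7.33 in the 3B10 tumors, the second largest difference of the 37 at -1.48 (SE 0.23, 95% CI -2.02 to -0.94). *Bcl2a1b*, an A1 protein of the BCL-2 family that favors survival, had 7.05, 6.95 and 7.17 in the C44 tumors and 6.44, 6.42 and 6.19 in the 3B10 tumors (-0.71 (SE 0.12, 95% CI -1.0 to -0.42)). Every 3B10 tumor was below every C44 tumor for *Ccl6* and *Bcl2a1b*. In *MMTV-PyMT* *Spi1* had 3.61, 3.89 and 3.10 in the C44 tumors and 3.64, 3.25 and 3.26 in the 3B10 tumors and *Csf2rb* had 3.74, 4.28 and 3.33 in the C44 tumors and 4.20, 3.72 and 2.91 in the 3B10 tumors. *Ccl6* there had 3.30, 5.28 and 2.27 in the C44 tumors and 5.15, 2.43 and 2.08 in the 3B10 tumors, high in C44 replicate 2 and 3B10 replicate 1 and low in the other tumors. *Bcl2a1b* had 4 to 22 reads per *MMTV-PyMT* tumor, under the minimum for a test.

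The 29 genes of *MMTV-PyMT* other than *Mertk*, *Siglec1*, *Cd83*, *Fcgr1* and *Ctss* had log2 differences from -0.40 to 0.38, all of them with a 95% CI that holds 0. Their precision was limited: over the 34 genes the 95% confidence interval of the difference was 1.40 log2 units wide at the median, against 0.93 in 4T1. The interval lay wholly below 0 for 25 genes in 4T1 and for 1 gene in *MMTV-PyMT*, and wholly above 0 for 0 and 1. These are the genes already counted at an unadjusted p under 0.05 in limma. Over all genes 3.1% and 1.18% were lower at that threshold, and 3.17% and 1.52% were higher.

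**Figure D2:**
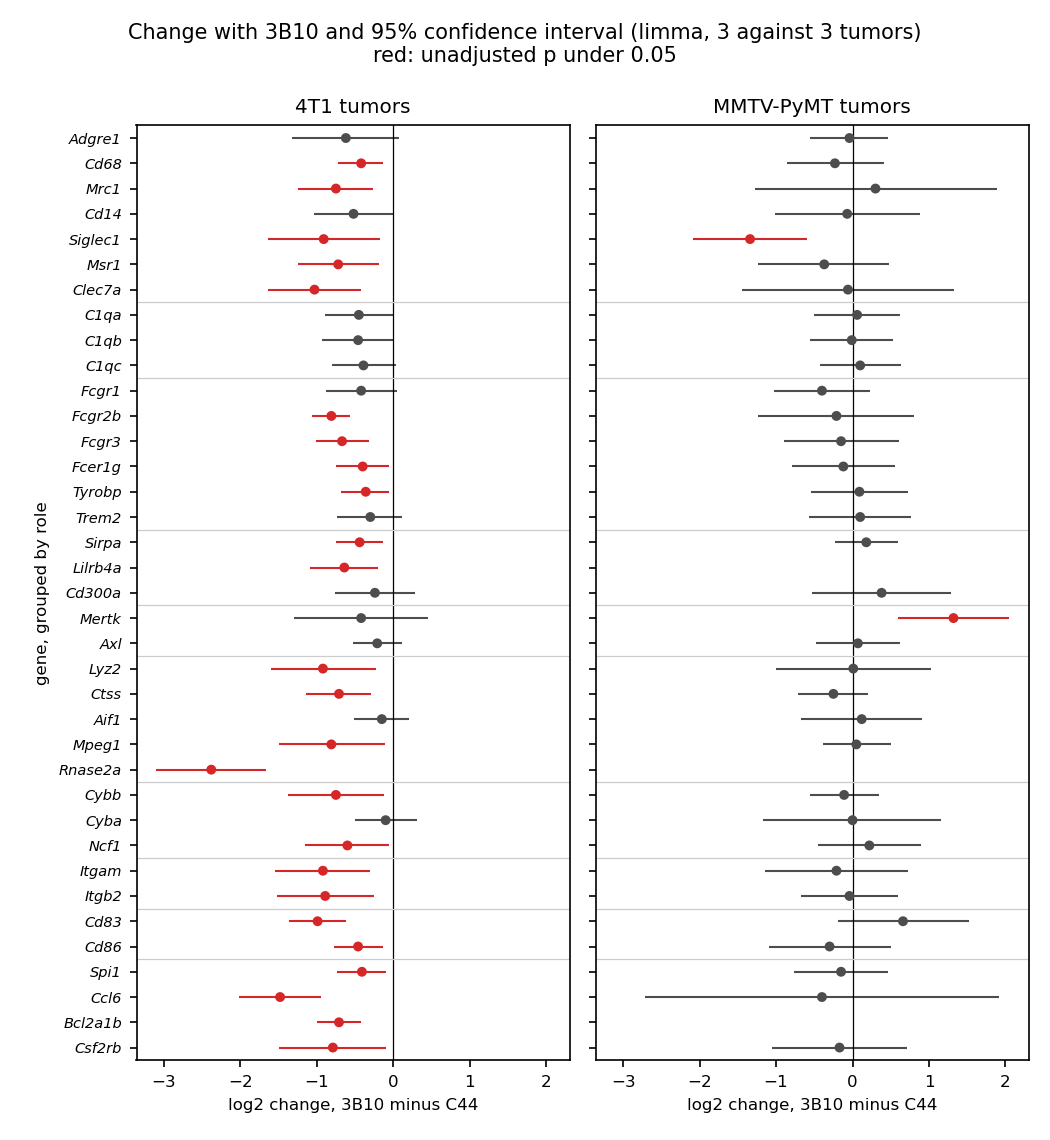
Log2 difference between 3B10 and C44 tumors for each gene, with its 95% confidence interval from limma (3 against 3 tumors), in 4T1 on the left and *MMTV-PyMT* on the right; red marks an unadjusted p under 0.05. All 37 points lie left of 0 in 4T1, with 25 in red, while the *MMTV-PyMT* points lie on both sides, with *Siglec1* and *Mertk* in red.

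Whether the effect of 3B10 differed between the models was tested as an interaction over all 12 tumors. The difference of effects (*MMTV-PyMT* minus 4T1) was above 0 for 36 of the 37 genes, with a median of 0.52 against 0.04 over 11944 genes; the exception was *Siglec1* at -0.43 (SE 0.44, 95% CI -1.39 to 0.53), and scaling each sample to a common median put *Fcgr1* below 0 as well. Of the 36, 6 (*Aif1*, *Bcl2a1b*, *Cd68*, *Cd86*, *Cyba* and *Fcgr1*) fell below 0 in at least 1 fit that left out a tumor, and 5 of the 37 were below 0 and 32 above without *MMTV-PyMT* C44 replicate 3 or 3B10 replicate 1. In limma 5 genes were above 0 at an unadjusted p under 0.05 (1.48% of all genes were), 0 were below (1.2% of all genes), and 0 passed an adjusted p under 0.05 (0% of all genes), with an adjusted p of 1 for each of the 37. The 5 were *Rnase2a* at 2.55 (SE 0.53, 95% CI 1.39 to 3.71), *Cd83* at 1.66 (SE 0.39, 95% CI 0.81 to 2.51), *Mertk* at 1.74 (SE 0.52, 95% CI 0.61 to 2.88), *Sirpa* at 0.62 (SE 0.22, 95% CI 0.13 to 1.11) and *Mpeg1* at 0.86 (SE 0.39, 95% CI 0.01 to 1.70). *Rnase2a* and *Lilrb4a* had no reads in *MMTV-PyMT*, so their values hold the 4T1 difference plus that between the *MMTV-PyMT* libraries in the value of 0 reads, which follows depth (means of -5.25 with C44 and -5.08 with 3B10). They passed the minimum level only through 4T1 and, being lower there, had to lie above 0. Both are in the 36 and the median, and *Rnase2a* is in the 5, where they add nothing on a difference between the models. *Bcl2a1b*, under the minimum there with means of -0.19 and -0.73, had 0.17 (SE 0.57, 95% CI -1.07 to 1.40). *Cd83* lay on opposite sides of its controls in the 2 models. The count of 5 was 11 without 4T1 3B10 replicate 2, and 8 with a pseudocount of 1.

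Other genes of the same pathways, from lists that do not contain the 37, were lower in 4T1 too. Of 15 genes that signal below Fc receptors and ITAM adaptors, 15 were lower (median log2 difference -0.39, 5 at an unadjusted p under 0.05 in limma). Over all genes 3.1% were lower at that threshold. The 3 other phagocyte oxidase subunits were all lower (median -0.35, 1 at that threshold). Of 43 other macrophage genes 40 were lower (median -0.56, 20 at that threshold and 0 higher), among them *Csf1r*, the receptor for the growth factor CSF1, at 7.79, 7.67 and 7.45 in C44 tumors and 6.47, 7.52 and 6.89 in 3B10 tumors. Of 8 PU.1 partners and myeloid transcription factors 7 were lower (median -0.34, 2 at that threshold). In *MMTV-PyMT* the same lists gave 6 of 14 lower (median 0.04), 0 of 3 (0.04), 20 of 39 (-0.04) and 4 of 7 (-0.01). There 1 of the other macrophage genes and 1 of the transcription factors were lower at an unadjusted p under 0.05 in limma (1.18% of all genes were). No gene of any list passed an adjusted p under 0.05 in limma in either model.

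Markers of other cells moved with the 4T1 groups as well. Over all genes 3.1% were lower and 3.17% higher in 4T1 at an unadjusted p under 0.05 in limma. All 13 pan-leukocyte genes were lower with 3B10 (median log2 difference -0.45, 7 at that threshold). Their summed level, on the deposited scale taken off the log, was 1499, 1485 and 1423 in C44 tumors and 1093, 1307 and 904.5 in 3B10 tumors, with *Cd53* the most abundant in C44. The sum of the 37 genes was 21330, 17550 and 19660 against 10770, 16130 and 10790, with *Lyz2* the most abundant. Both sums were lower in each 3B10 tumor than in any C44 tumor. Of 13 neutrophil markers 12 were lower (median -0.78, 8 at that threshold and 1 higher), with sums of 2302, 2270 and 3233 against 2344, 1647 and 1219 and *S100a8* the most abundant. All 10 T and NK cell markers were lower (median -1.15, 7 at that threshold), with sums of 189.5, 218.6 and 184.7 against 164.7, 100.1 and 48.49 and *Nkg7* the most abundant. Neutrophil sums overlapped between the groups, and T and NK cell sums did not. All 7 epithelial markers tested were higher (median 0.45, 5 at that threshold), with sums of 3428, 3833 and 3793 against 5280, 5030 and 5390 and *Krt18* the most abundant. All 5 skeletal muscle markers tested were higher at that threshold (median 2.73), with sums of 32.75, 28.62 and 60.6 against 75.86, 212.9 and 362.3 and *Tnni2* the most abundant. No pan-leukocyte or T and NK marker in the table was at the lowest value in any 4T1 tumor, while up to 2 of 9 epithelial and 1 of 6 muscle markers were. The part of these cells in the lower values of the 37 genes was not tested.

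The remaining marker lists had at most 1 gene lower and 1 higher at that threshold in 4T1. Of the 2 dendritic cell markers tested 1 was lower (median -0.13), and 2 of 2 B and plasma cell markers tested were lower (median -1.15), where C44 replicate 3 stood apart with a sum of 474.5 against 20.39 to 33.47 in the other tumors. For fibroblasts 1 of 7 was lower (median 0.26), for endothelium 5 of 5 (median -0.24), and for adipocytes 1 of 2 (median 0.25). In *MMTV-PyMT* the pan-leukocyte list gave 6 of 13 lower (median 0.01), neutrophils 4 of 9 (0.00), T and NK cells 3 of 4 (-0.14), dendritic cells 2 of 2 (-0.29), B and plasma cells 2 of 2 (-0.70), and epithelium 6 of 9 (-0.06). Fibroblasts gave 7 of 7 lower (-0.20), endothelium 2 of 5 (0.03), adipocytes 0 of 2 (0.68) and skeletal muscle 5 of 6 (-0.52). At an unadjusted p under 0.05 in limma, 1 neutrophil marker was lower there and 1 higher, and 1 epithelial and 1 adipocyte marker were higher. The pan-leukocyte sums in CPM were 475.2, 454.1 and 448 in C44 tumors and 548.5, 388.5 and 467.8 in 3B10 tumors, and those of the 37 genes were 1587, 1801 and 1061 against 1882, 1194 and 1307. 3B10 replicate 1 was the highest tumor in both sums.

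**Figure D3:**
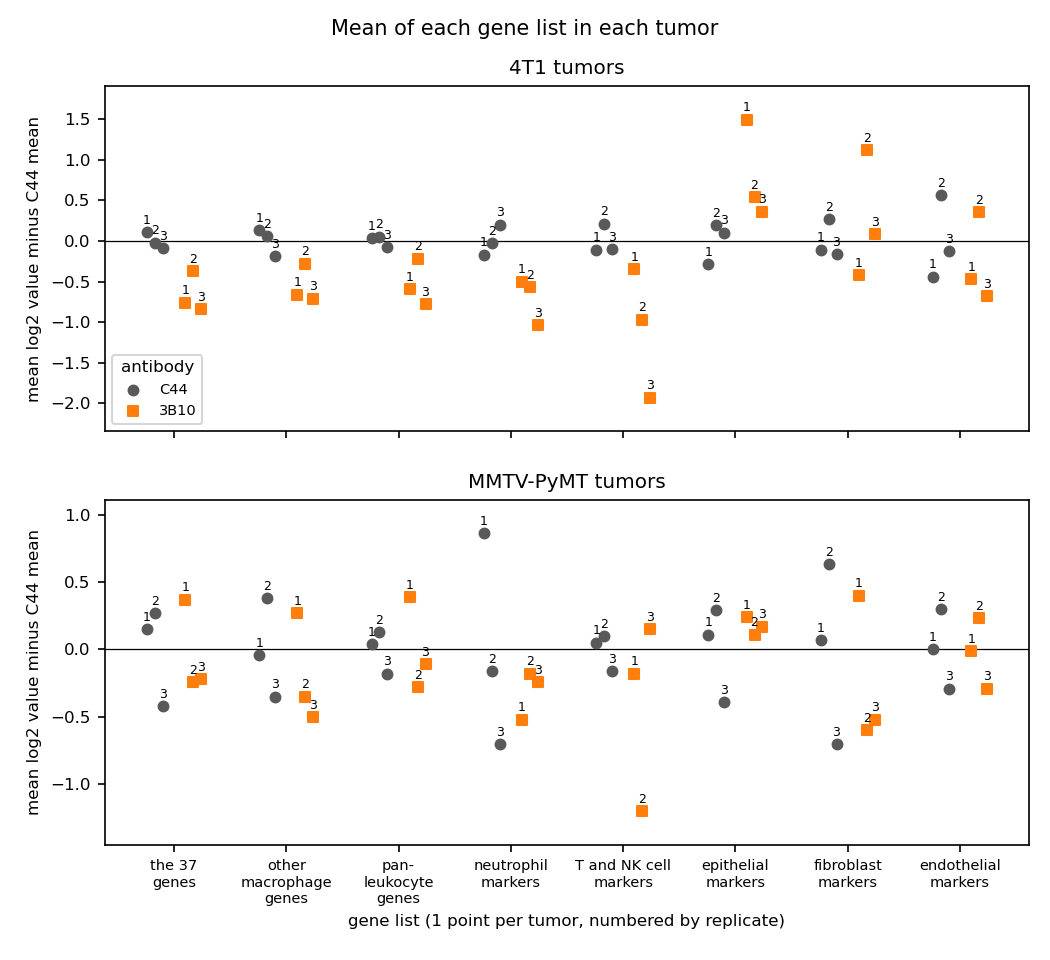
Mean log2 value of each gene list in each tumor minus the mean of the 3 C44 tumors, in 4T1 above and *MMTV-PyMT* below, with 1 point per tumor numbered by replicate. In 4T1 the 37 genes stand at -0.76, -0.37 and -0.84 in the 3B10 tumors, beside -0.59, -0.22 and -0.78 for pan-leukocyte genes; in *MMTV-PyMT* they stand at 0.37, -0.24 and -0.22, against -0.42 to 0.27 in the C44 tumors.

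Some of the 37 have close relatives in the genome, to which short reads may align as well, so their own values are uncertain; how alike the sequences are was not computed. *Bcl2a1b* has *Bcl2a1a* and *Bcl2a1d*, *Csf2rb* has *Csf2rb2*, *Lyz2* has *Lyz1*, and *Ncf1* has pseudogenes, while *Lilrb4b* and *Rnase2b*, relatives of *Lilrb4a* and *Rnase2a*, were absent from the table. A list of 10 such genes also held the family members *Fcgr4*, *Sirpb1a* and *Ccl9*, and *Ncf1* itself. Of the 8 in the table, 8 were lower in 4T1 at an unadjusted p under 0.05 in limma (median log2 difference -0.67), as were 3.1% of all genes. In *MMTV-PyMT* 2 of 4 tested were lower (median 0.07).

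In the cultured cells *Ptn* itself followed the labels. Its reads were 128, 92 and 80 in E0771 shCtrl and 12, 21 and 22 in shPTN cells, and 216, 446 and 248 against 56, 35 and 45 in E0771-LG. In the tumors, where the antibody binds the protein, *Ptn* log2 values were -0.19, -0.65 and -0.12 with C44 and -0.76, 0.86 and 0.37 with 3B10 in 4T1, and 2.80, 2.73 and 3.42 against 3.28, 2.95 and 4.22 in *MMTV-PyMT*. In shCtrl cells *Ptprc*, which encodes CD45, had 0 to 2 reads in E0771 and 0 to 5 in E0771-LG, against 301 to 446 in *MMTV-PyMT* C44 tumors. Other pan-leukocyte genes were abundant in the cells themselves: *Nckap1l* and *Arhgap30* stood at 148.2 and 144.8 CPM in E0771 shCtrl cells, *Nckap1l* and *Arhgdib* at 225.3 and 214.7 CPM in E0771-LG shCtrl cells, and *Laptm5* had 93 to 130 and 1521 to 1618 reads. Of the 13 genes of that list, 9 were higher in *MMTV-PyMT* C44 tumors than in E0771 shCtrl cells at an adjusted p under 0.05 in limma and 4 lower, and against E0771-LG 7 were higher and 5 lower. Of the epithelial markers *Krt8* had 1559 to 2188 and 2470 to 3667 reads, and *Krt18* had 2 to 3 and 13 to 18.

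Most of the 37 genes were at or near 0 in these cells. In E0771 shCtrl cells 16 genes had 0 reads in all 3 cultures and 9 reached 1 CPM, and in E0771-LG shCtrl cells 14 had 0 reads and 9 reached it. *C1qa*, *C1qc*, *Tyrobp*, *Cd83*, *Ccl6* and *Clec7a* had 0 reads in all 12 cultures. Against the 3 reads per group that a count of 0 allows, *C1qa* was at least 2220-fold higher in *MMTV-PyMT* C44 tumors than in E0771 shCtrl cells and at least 2260-fold higher than in E0771-LG shCtrl cells. *C1qb* was at least 1310-fold and 1330-fold higher, and *Sirpa* at least 1890-fold higher than in E0771 shCtrl cells. *Ctss* had 7875 reads in the 3 tumors and 1 in E0771 shCtrl cells, a ratio of 7470 scaled to depth with a 95% exact counting interval from 1340 to 295000. The genes that the cells did express include *Axl*, at 359 CPM in E0771 and 202 in E0771-LG shCtrl cells, *Cyba* at 86.7 and 57.9, and *Itgb2* at 17.7 and 29.9.

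**Figure D4:**
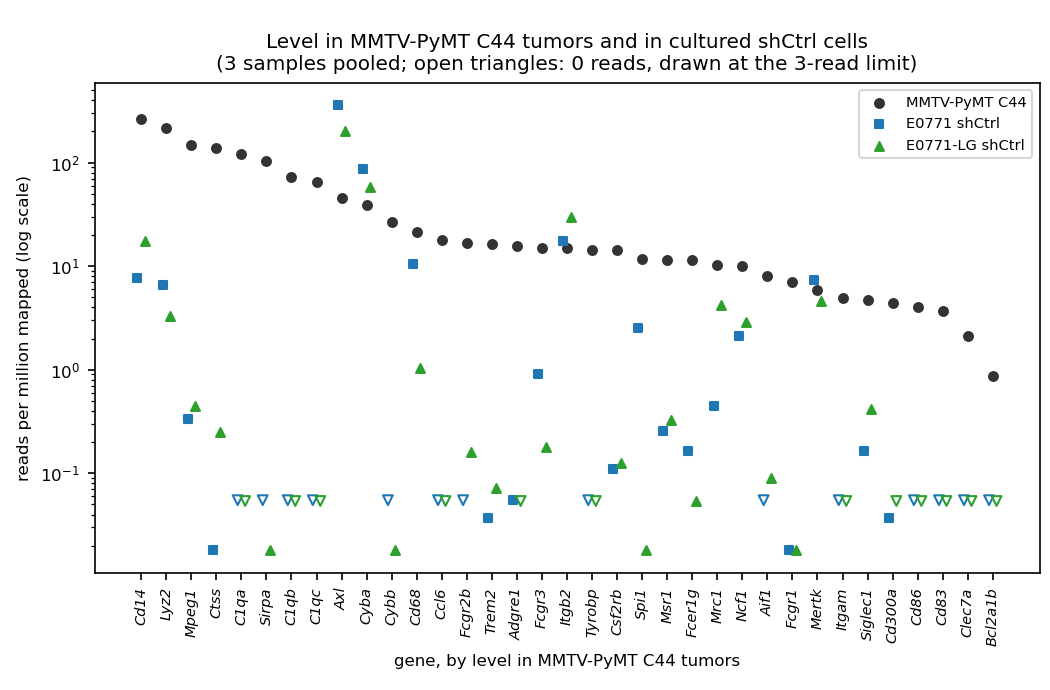
CPM, on a log axis, of each gene in *MMTV-PyMT* C44 tumors and in E0771 and E0771-LG shCtrl cells, 3 samples pooled; open triangles mark 0 reads, drawn at the level 3 reads would give. The tumor points lie above both cell lines for most genes, and *Axl*, *Cyba* and *Itgb2* are the 3 for which both lines lie above the tumors.

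In the limma comparison of *MMTV-PyMT* C44 tumors with shCtrl cells, 29 of 33 genes tested were higher at an adjusted p under 0.05 against E0771 (35.5% of all genes were) and 2 lower (39.4% of all genes), with 31 at an unadjusted p under 0.05 (76.6% of all genes). Against E0771-LG 28 of 33 were higher (40.9% of all genes) and 2 lower (34.3% of all genes), with 30 at an unadjusted p under 0.05 (77.1% of all genes). Both comparisons use the same tumors, and tumor model, strain and culture cannot be told apart in them. Genes that pass the minimum level only through the tumors had to differ, so the counts describe where the genes are read and support nothing more. The median log2 differences were 7.16 and 7.20, or 6.47 and 7.06 with genes at 0 reads set at their bound. They were 3.23 and 3.59 with a pseudocount of 1, and 3.35 and 4.05 with quantile normalization. Leaving out 1 sample took them as low as 1.53 and 0.45. Over all genes the medians were -0.07 and 0.12. Scaling by the median moved that second value from 0.115 to -0.008 and quantile normalization moved it to -0.158, under which *Ncf1*, *Siglec1*, *Mertk* and *Mrc1* fell below 0. Without any 1 tumor, fewer genes passed the minimum level, and the counts at an adjusted p under 0.05 were 7, 7 and 8 against E0771 and 7, 6 and 7 against E0771-LG, without C44 replicates 1, 2 and 3 in that order. *Axl* was lower in the tumors than in either line, by log2 differences of -2.98 (SE 0.13, adjusted p = 4.18e-07) against E0771 and -2.16 (SE 0.14, adjusted p = 4.18e-06) against E0771-LG. *Cyba* was lower against E0771 (-1.40 (SE 0.45, adjusted p = 0.0214)), a call lost without shCtrl replicate 3 (-1.30), while *Cd68*, among the 29 higher at 1.14 (SE 0.38, adjusted p = 0.0235), lost its call without C44 replicate 1 (1.01) or 2 (1.04) or shCtrl replicate 1 (0.74). Against E0771-LG *Itgb2* was lower (-1.02 (SE 0.25, adjusted p = 0.00646)).

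Some of the genes that the cells express changed with shPTN. In E0771 9 of the 37 were tested, and in limma 5 rose with shPTN at an adjusted p under 0.05 (8.89% of all genes did), 0 fell (11.7% of all genes), and 7 passed an unadjusted p under 0.05 (34.1% of all genes). *Lyz2* had log2 CPM of 2.65, 2.79 and 2.73 in the shCtrl cells and 5.21, 4.67 and 4.99 in the shPTN cells. *Spi1* had 1.33, 1.39 and 1.32 in the shCtrl cells and 2.53, 2.76 and 2.98 in the shPTN cells, and *Axl* had 8.45, 8.51 and 8.50 in the shCtrl cells and 8.97, 9.0 and 9.06 in the shPTN cells. In each of these every shPTN culture was above every shCtrl culture. The log2 changes were 2.23 (SE 0.16, adjusted p = 1.55e-05) for *Lyz2*, 1.41 (SE 0.23, adjusted p = 0.00203) for *Spi1* and 0.52 (SE 0.07, adjusted p = 0.00105) for *Axl* in limma. *Mertk* had 2.82, 3.20 and 2.49 in the shCtrl cells and 3.49, 3.84 and 3.55 in the shPTN cells, and *Ncf1* had 1.20, 0.99 and 1.10 in the shCtrl cells and 2.06, 1.79 and 2.38 in the shPTN cells, again with no overlap. *Mertk* changed by 0.79 (SE 0.21, adjusted p = 0.0214) and *Ncf1* by 0.98 (SE 0.27, adjusted p = 0.0249). *Mertk* lost its call without shCtrl replicate 1 (0.78), shCtrl replicate 3 (0.62) or shPTN replicate 3 (0.83), and *Ncf1* without shCtrl replicate 2 (0.93), shCtrl replicate 3 (0.99), shPTN replicate 1 (0.99) or shPTN replicate 3 (0.83). The count of 5 was 3 without either replicate 3 and 3 when all 24 samples shared a variance fit, and 2 genes were lower without shCtrl replicate 1. The median over the 9 was 0.52, against -0.03 over 10394 genes. Without a filter the median over all 37 was 0.03, against -0.006 over 12091 genes.

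In E0771-LG 10 of the 37 were tested, and in limma 4 rose with shPTN at an adjusted p under 0.05 (24.3% of all genes did), 3 fell (22.1% of all genes), and 8 passed an unadjusted p under 0.05 (54.1% of all genes). The shPTN libraries of this line were lower in longer genes than their own shCtrl libraries (a slope of -0.231 log2 units per doubling of exon length over 9445 genes), and the part of gene length in these changes was not tested. *Cd68* had log2 CPM of 0.25, -0.77 and 0.56 in the shCtrl cells and 1.74, 2.55 and 2.28 in the shPTN cells, and *Msr1* had -2.30, -0.90 and -1.76 in the shCtrl cells and 0.53, 0.25 and 0.09 in the shPTN cells. *Lyz2* had 1.23, 1.83 and 2.04 in the shCtrl cells and 2.64, 3.10 and 3.17 in the shPTN cells, and *Cyba* had 5.84, 5.95 and 5.76 in the shCtrl cells and 6.23, 6.52 and 6.36 in the shPTN cells. For these 4 every shPTN culture was above every shCtrl culture. The log2 changes were 2.17 (SE 0.43, adjusted p = 0.00207), 1.94 (SE 0.61, adjusted p = 0.0227), 1.27 (SE 0.28, adjusted p = 0.00422) and 0.52 (SE 0.11, adjusted p = 0.0035) in limma. *Axl* had 7.69, 7.66 and 7.64 in the shCtrl cells and 6.76, 6.67 and 6.92 in the shPTN cells, *Cd14* had 4.15, 4.24 and 3.99 in the shCtrl cells and 2.82, 2.80 and 3.29 in the shPTN cells, and *Mrc1* had 1.78, 2.22 and 2.17 in the shCtrl cells and 1.04, 1.46 and 1.25 in the shPTN cells. Here every shPTN culture was below every shCtrl culture, with changes of -0.88 (SE 0.10, adjusted p = 9.33e-05), -1.15 (SE 0.19, adjusted p = 0.000765) and -0.81 (SE 0.29, adjusted p = 0.0406). *Msr1*, with 3 to 10 reads per shCtrl culture, passed the minimum level only through the shPTN cells and so had to be higher there, and its call was lost with quantile normalization (1.01). *Mrc1* lost its call without shCtrl replicate 2 (-0.72) or 3 (-0.75) or shPTN replicate 1 (-0.70), 2 (-0.91) or 3 (-0.81). Without *Msr1*, 3 of 9 genes rose.

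**Figure D5:**
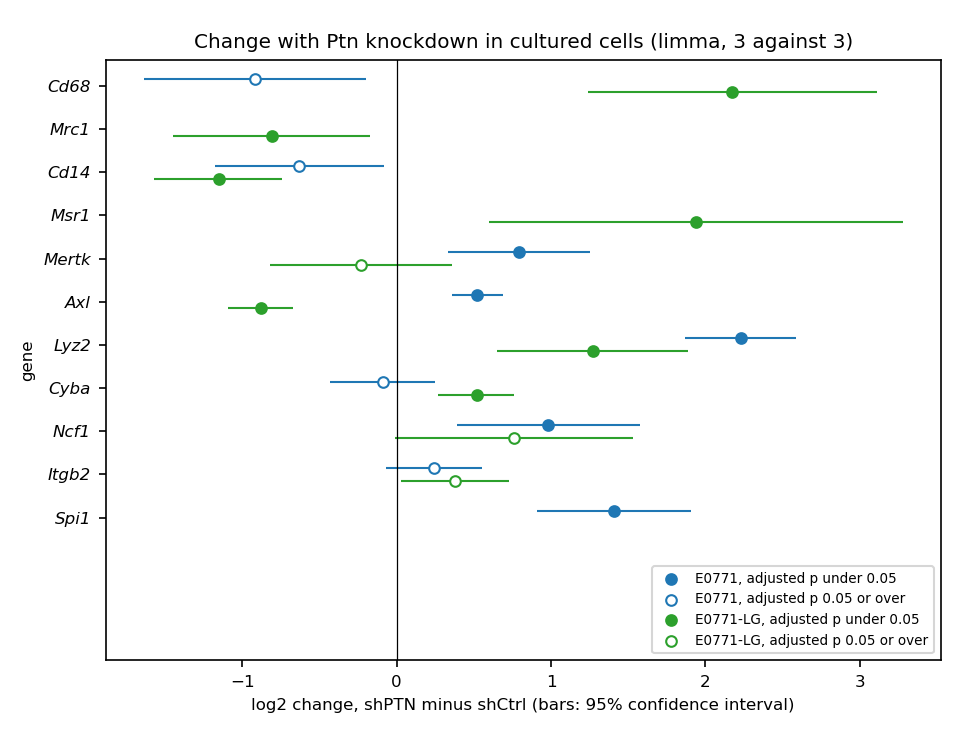
Log2 change with *Ptn* knockdown for the 11 genes tested in E0771 or E0771-LG cells, with 95% confidence intervals from limma (3 against 3 cultures); filled points have an adjusted p under 0.05. *Lyz2* lies right of 0 in both lines, and *Axl* lies right of 0 in E0771 (0.52) and left of it in E0771-LG (-0.88).

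The shCtrl cells of the lines differ in these genes before any knockdown, and they are the same samples as in the comparisons above. Of 10 genes tested, 6 were lower in E0771-LG than in E0771 shCtrl cells at an adjusted p under 0.05 in limma (35.3% of all genes were) and 3 higher (19.2% of all genes), with 9 at an unadjusted p under 0.05 (60.3% of all genes). The median over all genes was -0.149 here and 0 after scaling by the median, which turned 3672 lower and 2004 higher genes into 2828 and 2854; the counts of the 10 became 5 lower and 3 higher, and 4 and 4 with quantile normalization. *Spi1* passed the minimum level only through E0771 and *Mrc1* only through E0771-LG, so both had to differ, and without them 5 of 8 genes were lower and 2 higher. *Spi1* had 43, 53 and 41 reads in E0771 and 0, 1 and 0 in E0771-LG, a ratio of 140 scaled to depth with a 95% exact counting interval from 24.7 to 5570. *Cd68* was lower by a log2 difference of -3.24 (SE 0.45, adjusted p = 0.000256) and *Lyz2* by -1.03 (SE 0.27, adjusted p = 0.00833). *Axl* differed by -0.83 (SE 0.08, adjusted p = 3.33e-05) and *Mertk* by -0.66 (SE 0.26, adjusted p = 0.0491). *Cyba* was also lower, and those higher in E0771-LG were *Mrc1* at 3.46 (SE 0.54, adjusted p = 0.000436), *Cd14* at 1.23 (SE 0.23, adjusted p = 0.00125) and *Itgb2* at 0.75 (SE 0.16, adjusted p = 0.00279). *Mertk* lost its call without E0771 replicate 1 (-0.67) or 2 (-0.48), without E0771-LG replicate 1 (-0.51) or 3 (-0.75), without a filter (-0.66), when all 24 samples shared a variance fit (-0.66) and under both scalings (-0.51 and -0.09), and *Lyz2* lost it with quantile normalization (-0.46).

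Whether the shPTN effect differed between the lines was tested as an interaction over all 12 cultures, a comparison chosen after seeing the data. Of 11 genes tested, 3 had a lower effect in E0771-LG than in E0771 at an adjusted p under 0.05 in limma (15.7% of all genes did) and 2 a higher one (18.3% of all genes). *Axl* differed by -1.40 (SE 0.11, adjusted p = 2.64e-06), having risen in each E0771 shPTN culture and fallen in each of E0771-LG, and *Cd68* differed by 3.09 (SE 0.56, adjusted p = 0.00103). The calls of *Mertk* at -1.03, *Lyz2* at -0.96 and *Cyba* at 0.61 were weaker. The count of 5 was 2 without E0771 shCtrl replicate 3 or E0771-LG shCtrl replicate 3, 3 without E0771 shPTN replicate 2 or 3 or E0771-LG shPTN replicate 3, and 2, *Axl* and *Cd68*, when all 24 samples shared a variance fit. *Mertk* lost its call without E0771 shCtrl replicate 3 (-0.85), E0771 shPTN replicate 2 (-0.92), E0771-LG shCtrl replicate 3 (-0.94) or E0771-LG shPTN replicate 3 (-0.90). *Lyz2* lost it without E0771 shCtrl replicate 1 (-0.92) or 3 (-0.96), E0771 shPTN replicate 1 (-0.84) or 3 (-0.94), E0771-LG shCtrl replicate 2 (-0.90) or 3 (-0.79) or E0771-LG shPTN replicate 1 (-0.80). *Cyba* lost it without E0771 shCtrl replicate 3 (0.50), E0771 shPTN replicate 2 (0.47) or 3 (0.57), E0771-LG shCtrl replicate 3 (0.56) or E0771-LG shPTN replicate 2 (0.53) or 3 (0.61). The length slope of the E0771-LG shPTN libraries (-0.231) enters this comparison too, and its part was not tested.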

How the data were processed

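The values are log2 values as the authors deposited them. The submitters' notes name HISAT2, featureCounts, limma and edgeR and the builds mm10 and GRCm38, with no versions; the authors state no step that made the log2 values. Here limma 3.58.1 in R 4.3.3 (trended, robust moderation) was fitted to each comparison's own samples, leaving aside genes that did not reach 1 unit above the lowest value, both unlogged, in 3 samples or more, with Benjamini-Hochberg adjustment over all genes tested. Positions come from GENCODE M21, and Python 3.11.15, numpy 2.4.6, pandas 2.3.3, scipy 1.17.1 and matplotlib 3.10.9 made tables and figures. The 37 genes and the lists were chosen with earlier results of these data known. Values per sample are given for up to 10 genes of a tumor comparison by p (at an unadjusted p under 0.05, or the first 5), for 21 defining genes, and for up to 8 genes of a cell comparison by size of change at an adjusted p under 0.05; the rest are given by range. Of other lists only counts, sums, the most abundant genes, related copies and markers fixed beforehand are named. The groups hold 3 samples each, so that a single tumor can move a count; the tumors are bulk tissue, the models differ in strain, tumor origin and scale of values, and controls are shared between comparisons of cells. The 4T1 scale is inferred. The interaction between the cell lines was added after the data had been seen.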

Additional observations from a re-analysis of the deposited data

Results flagged for a closer look

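*Cd83* lay below all C44 tumors in all 3 of the 4T1 3B10 tumors and above them in all 3 of the *MMTV-PyMT* 3B10 tumors. In *MMTV-PyMT* the gap was small: the lowest 3B10 tumor had a log2 CPM of 2.13 and the highest C44 tumor 2.09. Reads there overlapped, at 79 to 149 with 3B10 and 53 to 81 with C44. The *MMTV-PyMT* difference alone was 0.66 (SE 0.37, unadjusted p = 0.112 in limma). Of all genes, 4.42% were lower without overlap in 4T1 and 6.06% higher without overlap in *MMTV-PyMT*. The difference of effects was 1.66 log2 units, with an adjusted p of 1 in limma.

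Of 11 genes tested in the cultured cells, 5 had a shPTN effect that differed between E0771-LG and E0771 (adjusted p under 0.05 in limma). Over all genes, 15.7% had a lower effect in E0771-LG and 18.3% a higher one at that threshold. When all 24 samples shared a variance fit the count was 2, *Axl* and *Cd68*. For *Axl* the difference was -1.40 and for *Cd68* 3.09, and both passed without any 1 culture. For *Mertk* it was -1.03 (adjusted p = 0.0269), and the call was lost without E0771 shCtrl replicate 3 (-0.85), E0771 shPTN replicate 2 (-0.92), E0771-LG shCtrl replicate 3 (-0.94) or E0771-LG shPTN replicate 3 (-0.90). For *Lyz2* it was -0.96 (adjusted p = 0.0331), lost without E0771 shCtrl replicates 1 (-0.92) or 3 (-0.96), E0771 shPTN replicates 1 (-0.84) or 3 (-0.94), E0771-LG shCtrl replicates 2 (-0.90) or 3 (-0.79), or E0771-LG shPTN replicate 1 (-0.80). For *Cyba* it was 0.61 (adjusted p = 0.0305), lost without E0771 shCtrl replicate 3 (0.50), E0771 shPTN replicates 2 (0.47) or 3 (0.57), E0771-LG shCtrl replicate 3 (0.56), or E0771-LG shPTN replicates 2 (0.53) or 3 (0.61).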

How the results depend on the processing

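Over 9 comparisons, 350 of 370 counts and medians kept their direction and stayed within the limits set for them (1.5 times for a count, the replicate spread for a median) under settings other than leaving out a sample. With all 24 samples in one fit, the 4T1 genes lower at an unadjusted p under 0.05 went from 25 to 7, those of *MMTV-PyMT* from 1 to 0, the E0771 genes called from 5 to 3 (all higher, 3), and those of the interaction between lines from 5 to 2, with 1 lower, 1 higher and 3 at an unadjusted p under 0.05. With a pseudocount of 1 the model interaction had 8 genes in place of 5, the line interaction a median of -0.51 in place of -0.22, and the tumor medians were 3.23 against E0771 and 3.59 against E0771-LG. Without a filter the medians were 0.03 in E0771, -0.04 between the lines and 6.49 for tumors against E0771. Quantile normalization gave 1 gene lower in E0771 in place of 0, a median of -0.28 between the lines, and tumor medians of 3.35 and 4.05; median scaling gave -0.48 between the lines. The cause of these shifts was not tested. Weights from recovered reads could not be had for 4T1, nor for the model interaction.

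The replicate block kept each of these results. No label states that samples of the same replicate number were paired. Correlations between samples of 1 number across genes were -0.33, 0.44 and -0.26 in 4T1 and -0.03, 0.12 and 0.23 in *MMTV-PyMT*. They were -0.02, 0.18 and -0.05 in E0771, 0.15, 0.26 and -0.15 in E0771-LG, and 0.21, 0.29 and -0.03 between the shCtrl lines. A sample correlated best with its own number in 1, 1, 1, 2 and 2 of 3 cases. These values neither show nor exclude pairing.

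Leaving out 1 sample gave ranges of 16 to 29 (4T1, lower at an unadjusted p under 0.05) with medians from -0.74 to -0.51; 1 to 2 (*MMTV-PyMT*, lower, 2 without 3B10 replicate 1) with medians from -0.30 to 0.11; and 4 to 11 (model interaction) with medians from 0.30 to 0.69. In *MMTV-PyMT* 24 of 34 genes changed sign in at least 1 such fit, in 4T1 only *Cyba* (0.00 and 0.06), and in the model interaction 6 of 37. In E0771 3 to 6 were called, 0 to 2 lower and 3 to 5 higher. Between the lines medians were -0.75 to -0.48. The interaction between lines had 2 to 5 called, 1 to 3 lower and 1 to 2 higher, with medians from -0.63 to 0.08; 2 remained without E0771 shCtrl replicate 3 or E0771-LG shCtrl replicate 3, and 3 without E0771 shPTN replicate 2, E0771 shPTN replicate 3 or E0771-LG shPTN replicate 3. For tumors against E0771 the count was 7 to 31, lower 1 to 2, higher 5 to 29, at an unadjusted p 8 to 31, and the median 1.53 to 7.32; against E0771-LG 6 to 30, higher 4 to 28, unadjusted 6 to 30, median 0.45 to 7.31. With 2 tumors left, genes absent from the cells no longer reached the minimum in 3 samples and were not tested.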
